A study of Mus musculus with 6 samples.

Results

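The core circadian clock was examined in left ventricles of mice through the transcripts of 9 genes: Bmal1, Clock and Npas2, which encode its activators, and Per1, Per2, Per3, Cry1, Cry2 and Ciart, which encode its repressors. They were chosen by gene symbol, and 9 of the 9 were found among the 13384 genes of the count table. The 6 libraries came from polyadenylated RNA of adult mice, 3 that lacked cytoglobin throughout the body (Cygb(-/-), knockout) and 3 wild-type littermates (Cygb(+/+)). Each animal carried an osmotic pump under the skin that for 2 weeks delivered 1.5 mg/kg/day of angiotensin II, a peptide that raises blood pressure. The wild-type group was therefore also under angiotensin II, and no untreated heart was used here. The deletion was present in every cell type, so no value can be assigned to the loss of cytoglobin from one of them. The sources used here do not give strain, sex, exact age or the hour at which each ventricle was collected.

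The mammalian clock is a feedback loop of transcription that runs in nearly every cell. BMAL1 pairs with CLOCK, or with the related protein NPAS2, and the pair binds E-box sequences and activates the Per and Cry genes and Ciart (also known as Chrono). The PER and CRY proteins accumulate, enter the nucleus and block the pair, and CIART represses it as well. A second loop of the repressors REV-ERB alpha and beta (Nr1d1, Nr1d2) and the activators of the ROR family sets the rhythm of Bmal1 and Npas2 through a shared element. In tissues of the mouse, heart included, Bmal1 and Npas2 transcripts therefore peak at the opposite side of the day from Per transcripts, Nr1d1 peaks before the Per genes and Cry1 peaks after them. Heart muscle uses this clock to time fuel use, ion channel expression and growth.

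The libraries held 23190864 to 30354857 counts. Of the listed ventricular muscle markers 8 of 8 were measured, with summed levels of 56250 to 74450 CPM (counts scaled to a common library total, with TMM factors). These levels show heart muscle but do not set ventricle apart from atrium, and the highest sum was in wild-type replicate 1. Wild-type replicate 1 stood apart in atrial markers. Of 8 listed, 7 were measured, and their summed level was 3132 CPM in that library, 2170 CPM in wild-type replicate 2, 748.9 CPM in wild-type replicate 3 and between 527.2 and 603.5 CPM in knockout hearts. The 3 measured mesothelial markers of 6 listed also peaked there, at a summed 41.5 CPM, with 11.3 to 19.3 CPM elsewhere. No measured atrial marker was at 0. Most of each atrial sum came from 1 gene, Nppa. Its level was 2282 CPM for wild-type replicate 1, 2058 CPM for replicate 2, 623.1 CPM for replicate 3 and 449.4 to 533 CPM for knockout hearts. Wild-type replicate 2 exceeded wild-type replicate 3 only in Nppa and Dkk3 (39.35 against 23 CPM), so its high sum rested mainly on Nppa. Myl7, the atrial myosin light chain gene, was at 249.6 CPM in wild-type replicate 1 and at 12.05 to 27.6 CPM in the other 5. Red cell markers, 4 of 5 measured, were highest there too, at 663.6 CPM against 224.2 to 472.8 CPM elsewhere. Wild-type replicate 2 had the most fibroblast marker RNA, 2987 CPM over 7 of 7 genes against 1266 to 1614 CPM in the other 5. The spread and the genotype estimates of the clock genes are given with and without wild-type replicate 1. So are the correlations among the 6 clock genes of widest spread, and the list medians that this library moves by over 1.5 times. In whole tissue, fewer cells of a type and less RNA per cell cannot be told apart.

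Promoter windows from RefSeq, running from 250 bases before to 50 bases after an annotated start, were available for 8 of the 9 genes (12 windows, all but Per2). A gene can have several such starts, and the start of a window need not be the outermost. They were searched on both strands for the E-box CACGTG, the variant E-box CACGTT, the ROR and REV-ERB element ANTNGGTCA, the D-box TTATGTAA and the cyclic AMP element TGACGTCA. No matches overlapped in the members' windows. The E-box is shown for Ciart and Per1, the D-box for Per3 and the ROR and REV-ERB element for Bmal1, since these were among the clock genes with the widest swings between libraries, with Bmal1 opposed to the other 3. Each sequence is from build GRCm38.p6, written 5′ to 3′ on the gene's own strand, with the matches in capitals.
Ciart, chr3:95882179-95882478, minus strand: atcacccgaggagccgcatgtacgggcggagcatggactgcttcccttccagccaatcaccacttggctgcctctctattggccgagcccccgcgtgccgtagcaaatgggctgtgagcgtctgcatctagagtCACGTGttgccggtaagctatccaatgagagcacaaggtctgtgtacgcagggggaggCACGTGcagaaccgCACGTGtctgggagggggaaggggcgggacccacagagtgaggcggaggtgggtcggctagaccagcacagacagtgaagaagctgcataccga
Per1, chr11:69098699-69098998, plus strand: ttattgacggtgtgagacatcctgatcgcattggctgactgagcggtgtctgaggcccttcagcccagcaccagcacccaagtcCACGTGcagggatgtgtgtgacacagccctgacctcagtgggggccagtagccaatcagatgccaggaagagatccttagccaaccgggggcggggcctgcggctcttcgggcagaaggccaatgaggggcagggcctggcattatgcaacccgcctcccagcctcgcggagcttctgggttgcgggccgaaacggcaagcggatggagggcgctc
Per3, chr4:151044616-151044915, minus strand: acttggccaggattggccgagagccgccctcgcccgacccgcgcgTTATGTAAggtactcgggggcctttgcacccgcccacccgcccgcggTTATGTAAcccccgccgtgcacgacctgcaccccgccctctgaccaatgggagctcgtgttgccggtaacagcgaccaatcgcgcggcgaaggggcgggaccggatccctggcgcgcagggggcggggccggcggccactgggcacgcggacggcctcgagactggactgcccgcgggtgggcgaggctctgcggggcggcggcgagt
Bmal1, chr7:113207261-113207560, plus strand: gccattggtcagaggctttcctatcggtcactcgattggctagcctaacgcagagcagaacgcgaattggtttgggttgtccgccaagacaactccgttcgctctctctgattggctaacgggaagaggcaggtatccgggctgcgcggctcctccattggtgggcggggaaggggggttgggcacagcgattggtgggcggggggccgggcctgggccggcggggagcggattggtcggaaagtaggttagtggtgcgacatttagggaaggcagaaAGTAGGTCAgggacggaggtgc

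Ciart carried 3 matches to CACGTG, whose first bases lay 116, 58 and 44 bases before the start. Per1 carried 1 match, 166 bases before the start of 1 of its 2 windows, and its other window held no CACGTG. Cry1 also held 1 such match, 60 bases before its start on chromosome 10, and the variant E-box 79 bases before. The variant was found as well in the Cry2 window. CACGTG occurred in 7.15% of all 32851 windows and CACGTT in 4.68%. Per3 held 2 copies of TTATGTAA, the sequence bound by the PAR bZIP factors DBP, TEF and HLF and by NFIL3, in a window set of which 0.938% had any. The Bmal1 match began 28 bases after the annotated start of 1 of its 2 windows, and 2.24% of all windows held that element. None of the 12 windows held TGACGTCA, which was found in 1.79% of all. A match is a run of letters, and binding was not measured.

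Between the 6 ventricles, the transcripts of 6 of the 9 clock genes differed more than 7-fold from the lowest to the highest library. Only 44 of all 13384 genes, or 0.329%, spanned more than 7-fold, and the median gene spanned 1.54-fold. Bmal1 ranked 5th of 13384 in this spread, Per2 15th, Per1 21st, Ciart 22nd, Per3 27th and Npas2 38th. These ranks use no genotype label and are a description of the libraries, with no test attached. The width of the spread rested on wild-type replicate 1. Without it 1 of the 9 genes, Bmal1, spanned more than 7-fold (8.10-fold, 8th of all genes), as did 0.127% of all genes. Per2 then spanned 3.56-fold (207th), Per3 3.35-fold (255th), Ciart 2.89-fold (484th), Per1 2.66-fold (669th) and Npas2 2.58-fold (761st), against a median of 1.46-fold over all genes. Cry1 spanned 1.75-fold without that library, and Cry2 and Clock kept their spans of 1.75-fold and 2.14-fold. Over all 6 libraries, the share of variance between the genotypes was 48.2% for Per2, 44.9% for Per3, 41.6% for Per1 and 39.6% for Ciart. It was 35.8% for Bmal1 and 28.7% for Npas2, and the rest lay inside the genotypes. The pooled SD within groups, on the log2 scale, was 1.53 for Bmal1 (6th of all genes) against a median of 0.21 over all genes.

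**Figure D1:**
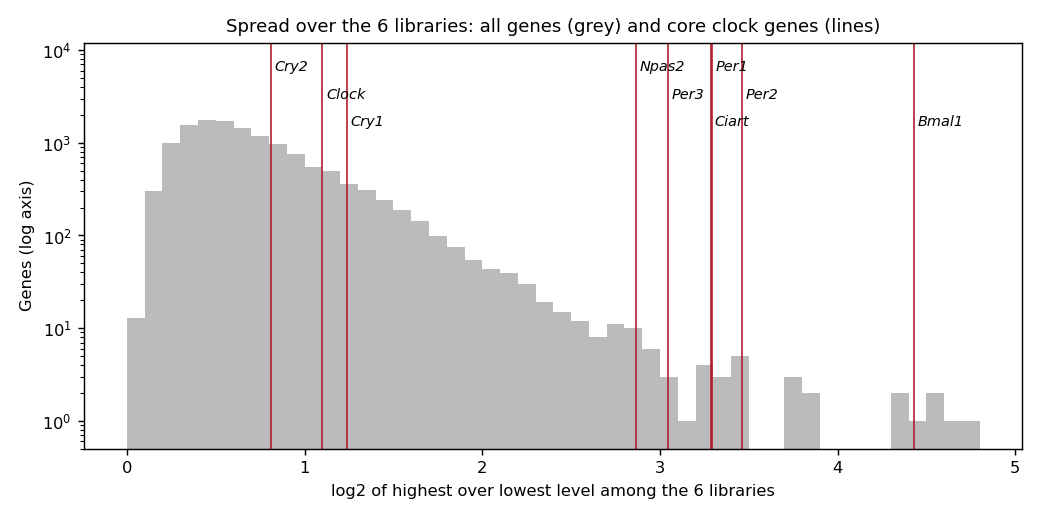
Histogram of the log2 of the highest over the lowest level among the 6 libraries for all 13384 genes (grey, log vertical axis), with red lines at the 9 core clock genes. Bmal1 lies at 4.43 and the Per genes, Ciart and Npas2 between 2.87 and 3.46, to the right of nearly all genes, while Cry2, Clock and Cry1 lie between 0.81 and 1.24.

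Among the activators, Bmal1, the one clock gene whose single loss stops the loop, was at 12.95, 1.58 and 1.72 CPM in knockout replicates 1, 2 and 3. In the wild-type libraries, in the same order of replicates, it was at 34.5, 5.89 and 8.65 CPM. The lowest values rested on 38 and 39 counts and the highest on 837, so counting error was small beside the 21.5-fold span. The groups overlapped, since knockout replicate 1 lay above wild-type replicates 2 and 3. Npas2, the relative of Clock that is prominent in the forebrain and in some peripheral tissues, was at 3.67, 1.91 and 1.41 CPM in knockout hearts and 10.4, 2.52 and 2.88 CPM in wild-type hearts. It followed Bmal1 in its extremes, with wild-type replicate 1 highest and knockout replicates 2 and 3 lowest, over a 7.29-fold span. Clock, whose transcript is known to cycle weakly, was at 63.5, 38.3 and 41.7 CPM in knockout hearts and 33.4, 46.2 and 29.6 CPM in wild-type hearts. It spanned 2.14-fold, and its highest library was knockout replicate 1, so it did not share the order of Bmal1 and Npas2.

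The 3 Per genes encode the repressors whose build-up times the loop, and they were high where Bmal1 was low. Per1, which also responds to glucocorticoids and to cyclic AMP, was at 63.1, 117.7 and 110.9 CPM in knockout hearts and 11.98, 78.4 and 44.2 CPM in wild-type hearts. Per2 was at 18.8, 36.9 and 52.4 CPM in knockout hearts and 4.73, 21.9 and 14.7 CPM in wild-type hearts. Each of these genes had knockout replicates 2 and 3 as its highest libraries and wild-type replicate 1 as its lowest. Per3, the Per gene whose loss leaves the rhythm mostly intact, was at 20.3, 56.1 and 63.8 CPM in knockout hearts and 7.70, 28.4 and 19.0 CPM in wild-type hearts. In Per1, Per2 and Per3 alike, wild-type replicate 2 lay above knockout replicate 1, so the genotypes overlapped. Ciart, which encodes a repressor that binds BMAL1, was at 10.2, 25.1 and 18.6 CPM in knockout hearts and 2.55, 13.7 and 8.68 CPM in wild-type hearts. It ordered the 6 libraries as Per1 did, over a 9.76-fold span.

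**Figure D2:**
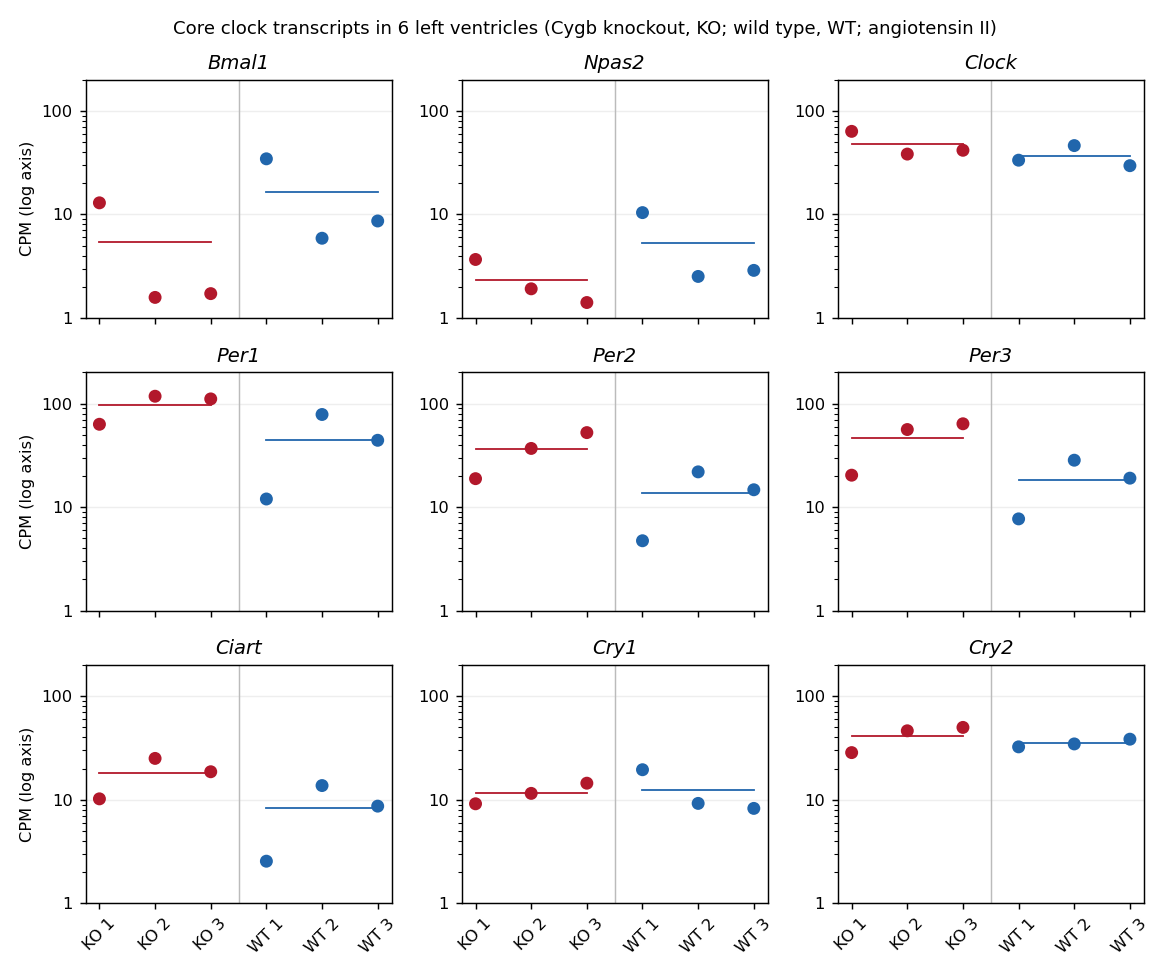
Level of each core clock gene in CPM (log axis) in the 3 knockout (KO, red) and 3 wild-type (WT, blue) libraries, 1 point per mouse, with a line at the arithmetic mean of each group. Wild-type replicate 1 is highest for Bmal1 and Npas2 and lowest for the Per genes and Ciart, and knockout replicates 2 and 3 show the reverse.

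The cryptochrome genes, which encode the stronger partners of the PER proteins in repression, varied less. Cry1 was at 9.15, 11.5 and 14.5 CPM in knockout hearts and 19.5, 9.23 and 8.26 CPM in wild-type hearts. It was highest in wild-type replicate 1, together with Bmal1, but next highest in knockout replicate 3, where Bmal1 was second lowest and Per2 highest. Cry1 thus belonged to neither side: its Pearson r with Per2 over the 6 libraries was -0.323 (Spearman rho 0.143, exact permutation p = 0.543 and 0.803, adjusted over 36 pairs 0.688 and 0.946). Without knockout replicate 3 and wild-type replicate 1 the same r was 0.990. Cry2 was at 28.6, 46.4 and 50 CPM in knockout hearts and 32.4, 34.6 and 38.5 CPM in wild-type hearts. It spanned 1.75-fold, with knockout replicate 1 lowest and knockout replicates 2 and 3 highest.

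Levels can be compared between genes only per length of transcript. As CPM per kilobase of the longest annotated transcript, over the 6 libraries, Per1 was highest, at 15.2 ± 8.62 (SD, n = 6), followed by Cry2 at 9.66 ± 2.09 and Ciart at 6.78 ± 4.09. Per3 (5.43 ± 3.73), Clock (4.32 ± 1.23), Per2 (4.27 ± 2.93) and Cry1 (3.97 ± 1.42) lay close together. Bmal1 (2.72 ± 3.09) and Npas2 (0.898 ± 0.787) were lowest. In none of the 8 pairs of neighbours in this order did the means differ by more than the larger SD, so the order is loose. For Bmal1 the SD exceeded the mean, and its level per kilobase ran from 0.396 to 8.62.

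Read library by library, the clock genes set wild-type replicate 1 at one end. It was the highest library for 3 of the 9 genes (Bmal1, Npas2 and Cry1) and the lowest for 4 (Per1, Per2, Per3 and Ciart). Knockout replicates 2 and 3 stood at the other end. Knockout replicate 2 was highest for Per1 and Ciart and lowest for Bmal1, and knockout replicate 3 was highest for Per2, Per3 and Cry2 and lowest for Npas2. In the 6 genes of widest spread, knockout replicate 1 and wild-type replicates 2 and 3 lay between them. Outside those 6, knockout replicate 1 was highest for Clock and lowest for Cry2, and wild-type replicate 3 was lowest for Cry1 and Clock. Wild-type replicate 2 was at no extreme. Each of these 3 in-between libraries had a Bmal1 level of 5.89 to 12.95 CPM and a Per2 level of 14.7 to 21.9 CPM.

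Ratios between genes in the same library do not depend on library scaling. Per2 over Bmal1, as a ratio of CPM, was 1.45, 23.04 and 30.2 in knockout replicates 1, 2 and 3 and 0.138, 3.71 and 1.70 in the wild-type ones. Gene length is not taken into account, so these ratios compare libraries with each other and not the genes. The span of the ratio from lowest to highest library was 218.7-fold. Per3 over Bmal1 ran from 0.224 in wild-type replicate 1 to 36.7 in knockout replicate 3. Ciart over Bmal1 ran from 0.0746 in wild-type replicate 1 to 15.7 in knockout replicate 2. Per2 over Cry1 was 2.06, 3.19 and 3.62 in the knockout and 0.243, 2.37 and 1.78 in the wild type, a span of 14.9-fold. In each of these 4 ratios the genotypes overlapped, since knockout replicate 1 lay below wild-type replicate 2.

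**Figure D3:**
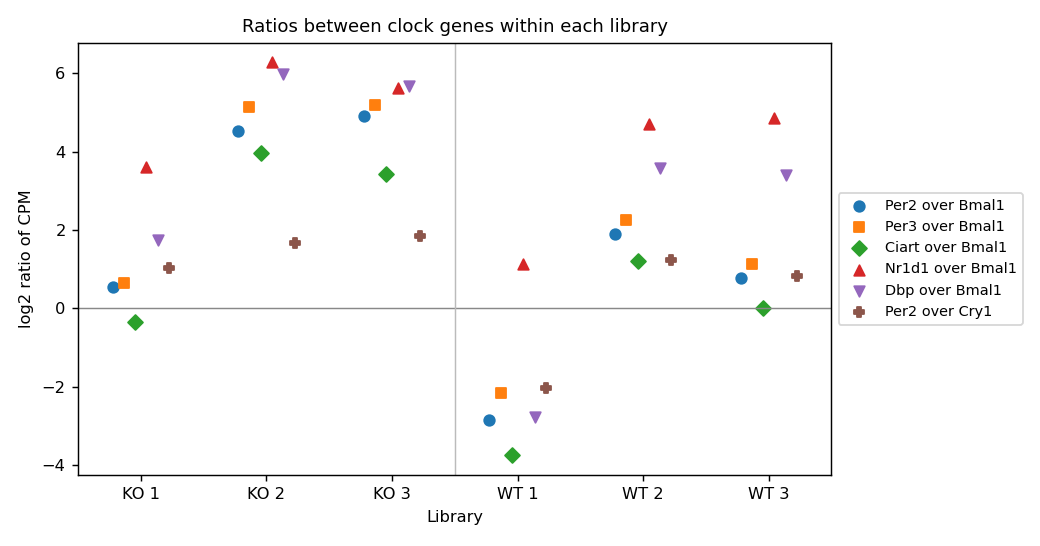
Log2 ratio of CPM between pairs of clock genes in each of the 6 libraries, 1 symbol per pair, with knockout (KO) left of the vertical line and wild type (WT) right of it and the horizontal line at a log2 ratio of 0. Wild-type replicate 1 is lowest in all 6 ratios, and knockout replicates 2 and 3 are highest in all 6.

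The 6 genes with the widest spread moved as 2 opposed sets. Per1, Per2, Per3 and Ciart were high and low together over the 6 libraries, and Bmal1 and Npas2 ran against them. Pearson's r of log2 CPM was positive in 7 of their 15 pairs and negative in 8, with an absolute value of 0.902 to 0.991. For Per2 and Bmal1, r was -0.944 and Spearman's rho -0.886 (exact permutation p = 0.00833 and 0.0333, two-sided, adjusted over 36 pairs 0.0231 and 0.0750). Without knockout replicate 3 and wild-type replicate 1, the libraries farthest from the Per2 median, r was -0.902. For Per3 and Bmal1, r was -0.985 and rho -0.886 (exact permutation p = 0.00556 and 0.0333, adjusted 0.0182 and 0.0750), and r was -0.971 without the same libraries. For Bmal1 and Npas2, r was 0.936 and rho 0.943 (exact permutation p = 0.00278 and 0.0167, adjusted 0.0167 and 0.0545), and r was 0.998 without knockout replicate 2 and wild-type replicate 1. In all 15 pairs the adjusted p of r was at most 0.0267, and in none of the other 21 pairs, those with Cry1, Cry2 or Clock, did it pass 0.05. By rank this division was not seen at that threshold. The adjusted exact permutation p of rho was 0.05 to 0.075 in the 15 pairs, under 0.05 in none, and was 0.075 for Cry2 and Npas2 too. After each genotype's mean was subtracted, the absolute r of the 15 pairs was at least 0.843, so the opposition also held between animals of one genotype. Without wild-type replicate 1 the 15 pairs had the same signs, with an absolute r of 0.788 to 0.977 over 5 libraries. These 6 genes were grouped after their spread was seen.

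The second loop and the output factors shared this division in part. Nr1d1, the gene of REV-ERB alpha, was at 158.9, 124.5 and 85.3 CPM in knockout hearts and 75.8, 155.3 and 250.4 CPM in wild-type hearts. Its highest library was thus wild-type replicate 3, an in-between library for Per2, and it was low both in wild-type replicate 1 and in knockout replicate 3, where Per2 was lowest and highest. Nr1d2, the gene of REV-ERB beta, was at 119.7, 126.3 and 156.8 CPM in knockout hearts and 21.4, 109.7 and 84.97 CPM in wild-type hearts. Dbp, a direct E-box target and transcription factor of the PAR bZIP family, was at 43.5, 100.4 and 88.9 CPM in knockout hearts and 5.06, 71.2 and 91.3 CPM in wild-type hearts. Its 19.8-fold span was the 7th widest of all genes. Nfil3, which encodes a repressor at the D-box, was at 49.98 CPM in wild-type replicate 1 and at 8.49 to 12.7 CPM in the other 5 libraries. Wild-type replicate 1 was lowest for 5 of the 8 measured genes of this list (Nr1d1, Nr1d2, Dbp, Tef and Hlf) and highest for Nfil3. Knockout replicate 3 was highest for 4 (Nr1d2, Rora, Tef and Hlf). Rora was lowest in wild-type replicate 3 and Nfil3 in wild-type replicate 2, so these genes did not keep to the division at that end.

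**Figure D4:**
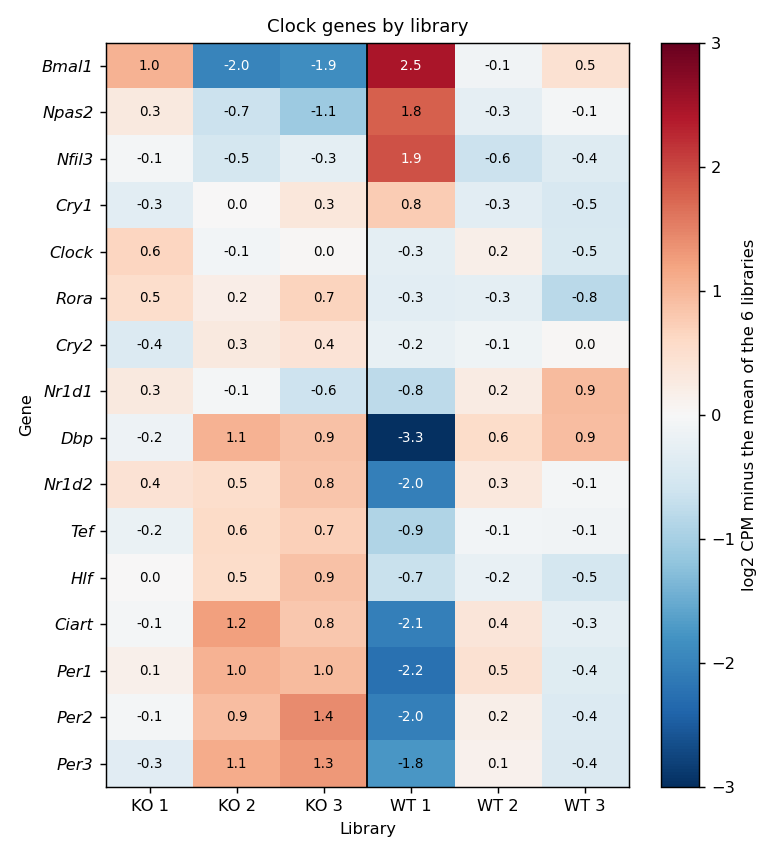
Log2 CPM minus the mean of the 6 libraries for the 9 core clock genes and 7 of the 8 measured genes of the second loop and its outputs, with red above and blue below the mean and colours limited to 3 in either direction. The wild-type replicate 1 column has the opposite sign to the knockout replicate 2 and 3 columns for Bmal1 and Npas2 above and for Dbp, the Per genes and Ciart below.

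The comparison of genotypes asked whether clock transcripts differed between knockout and wild-type ventricles under angiotensin II. Means of the Per genes, Ciart, Cry2 and Clock were higher in the knockout (6 of 9) and those of Bmal1, Npas2 and Cry1 lower (3 of 9), but no member passed the test. In edgeR's quasi-likelihood test with Benjamini-Hochberg adjustment over all 13384 genes, 0 of 9 had an adjusted p under 0.05, against 0.112% of all genes. At an unadjusted p under 0.05 it was again 0 of 9, against 19.2% of all genes, and DESeq2 and limma-voom called 0 each. The result depended on the model, since edgeR with the replicate number as a block called 4 of 9. Per2, Per3 and Ciart were then higher in the knockout and Bmal1 lower. With the block and a correction for GC content and length, 2 of 9 were called, Per3 and Bmal1. Equal numbers were not treated as pairs, and whether they share an hour of collection was not tested. The groups did not overlap in 0 of 9, against 22.3% of all genes. The median log2 fold change, knockout minus wild type, was 0.39 over the 9 genes and -0.0045 over all genes. The members' median was 0.61 without wild-type replicate 2 and 0.75 with a minimum mean of 5 CPM, which leaves out Npas2.

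Bmal1 was at 5.42 ± 6.52 CPM in knockout hearts and 16.3 ± 15.8 CPM in wild-type hearts (SD, n = 3 each), with a log2 difference of -1.58 (SE 1.22, adjusted p = 0.536 by edgeR). In this fit, which had no replicate block, a difference of that size was within the spread between animals. With the block it was -1.83 (edgeR adjusted p = 4.24e-05). Npas2 had a log2 difference of -1.16 (SE 0.64, edgeR adjusted p = 0.363). Per2 was at 36.0 ± 16.8 CPM versus 13.8 ± 8.62 CPM (1.38, SE 0.67, edgeR adjusted p = 0.339), and Per3 at 46.8 ± 23.2 CPM versus 18.4 ± 10.4 CPM (1.34, SE 0.66, edgeR adjusted p = 0.345). The estimates for the Per genes were thus above 2-fold, with standard errors too wide for a call in the fit without a block. Per1 had a log2 difference of 1.11 (SE 0.74, edgeR adjusted p = 0.474) and Ciart of 1.11 (SE 0.66, edgeR adjusted p = 0.419). Clock was at 47.8 ± 13.7 CPM versus 36.4 ± 8.72 CPM (0.39, SE 0.21) and had the smallest adjusted p of the 9, 0.329 by edgeR. With the correction for GC content and length the Clock estimate was 0.023 (edgeR adjusted p = 0.965). Cry2 had a log2 difference of 0.24 (SE 0.19, edgeR adjusted p = 0.496) and Cry1 of -0.071 (SE 0.32, edgeR adjusted p = 0.924). The share of a gene's variance over the 6 libraries that lay between the genotypes was at most 48.2%, for Per2, and was 0.0195% for Cry1.

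Most of these estimates were nearer 0 without wild-type replicate 1. The log2 fold change was then -0.42 for Bmal1, -0.21 for Npas2, 0.98 for Per2, 0.98 for Per3, 0.67 for Per1 and 0.69 for Ciart. For Clock it was 0.34 and for Cry2 0.19. Cry1 changed sign without that library, to 0.42. Without knockout replicate 1, the in-between animal of its group, the estimate for Bmal1 was -3.30 (edgeR adjusted p = 0.321) and that for Npas2 -1.65, while Clock was at 0.13 and Cry2 at 0.45. Without wild-type replicate 2, the library with the most fibroblast marker RNA, the estimates were 1.79 for Per1, 1.66 for Ciart and 0.61 for Clock. Cry2 was at 0.090 with knockout replicate 3 left out and at 0.16 with knockout replicate 2 left out. Leaving out wild-type replicate 3 put Clock at 0.26. No member passed without any one library (edgeR adjusted p from 0.0785, for Clock without wild-type replicate 2, to 0.955). The part of the atrial and red cell content of wild-type replicate 1 or of the fibroblast content of wild-type replicate 2 in their clock gene levels was not tested, and neither was that of the hour of collection.

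**Figure D5:**
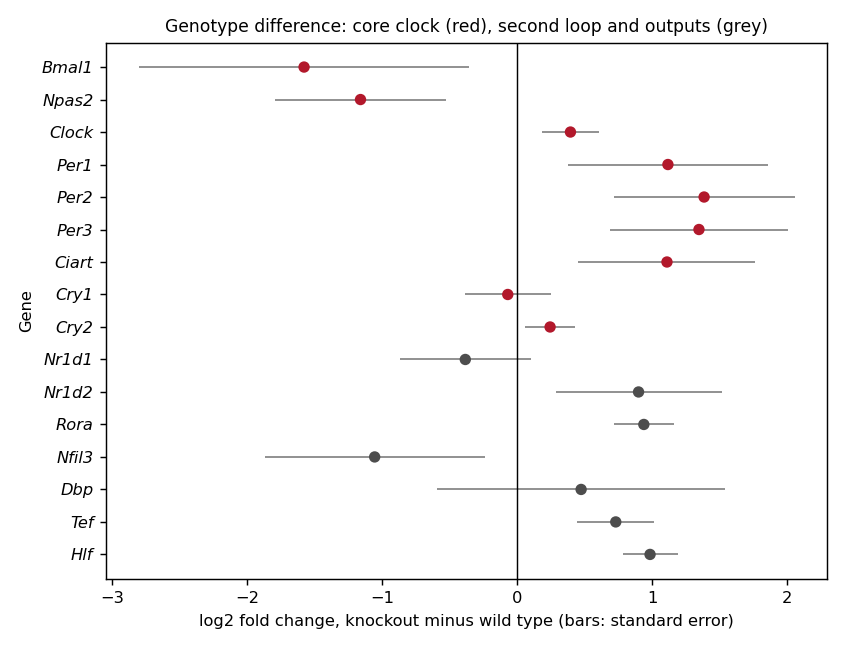
Log2 fold change, knockout minus wild type, with the standard error as bars (3 mice per group), for the 9 core clock genes (red) and 7 of the 8 measured genes of the second loop and its outputs (grey). Bmal1 at -1.58 and Npas2 at -1.16 lie left of 0 and the Per genes and Ciart, between 1.11 and 1.38, right of it, with wide bars.

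Other genes tied to the clock were read from lists. None of their members passed edgeR's test without a replicate block, in either direction over all genes. Of all 13384 genes, 6618 were above 0 and 19.2% had an unadjusted p under 0.05. In the second loop and outputs 0 of 8 passed, 5 were above 0 and the median was 0.60 (0.35 without wild-type replicate 1), with 3 at an unadjusted p under 0.05. The groups did not overlap for 3 of the 8 (Hlf, Rora and Nr1d2), against 22.3% of all genes. Hlf, at 23.5, 33.7 and 42.5 CPM in knockout hearts and 14.5, 19.8 and 16.1 CPM in wild-type hearts, came closest (0.98, SE 0.20, edgeR adjusted p = 0.0634). Hlf encodes a PAR bZIP factor. Rora, the gene of a ROR activator, was at 0.94 (SE 0.22, edgeR adjusted p = 0.0783) and Tef at 0.73 (SE 0.28, edgeR adjusted p = 0.225). Dbp was at 0.47 (SE 1.06), Nr1d2 at 0.90 (SE 0.61), Nr1d1 at -0.39 (SE 0.48) and Nfil3 at -1.06 (SE 0.81), with edgeR adjusted p from 0.485 to 0.845.

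Most kinases, ligases and deubiquitinases that act on clock proteins varied little between libraries. Of 16 measured, 0 passed, 3 had an unadjusted p under 0.05, 14 were above 0, and the median log2 fold change was 0.13. With the correction for GC content and length the median turned to -0.031, so the direction of this list depended on that choice. Their median span over the 6 libraries was 0.42 on the log2 scale, against 3.05 for the 9 core genes and 0.63 for all genes. Csnk1d, the gene of casein kinase 1 delta, which phosphorylates PER, lay between 82.9 and 94.1 CPM in all 6 libraries. Usp2, itself under clock control, was the exception in span, from 63.8 CPM in wild-type replicate 1 to 179.7 CPM in knockout replicate 2. By p-value, Prkaa2, a catalytic subunit gene of AMP-activated kinase, led the list (0.43, SE 0.14, edgeR adjusted p = 0.141), followed by Usp2 (0.65, SE 0.24) and Csnk1e (-0.39, SE 0.15). Csnk1d was named after its values were seen.

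Among 12 coregulators of the loop 0 passed, 5 had an unadjusted p under 0.05 and 11 were above 0. Their median was 0.16, and 0.083 with the GC content and length correction, 0.25 and 0.26 when wild-type replicate 1 or 2 was left out. Nampt, the rate-limiting enzyme of NAD salvage, was at 191.5, 205.4 and 275.0 CPM in knockout hearts and 146.0, 137.9 and 162.8 CPM in wild-type hearts (0.59, SE 0.15, edgeR adjusted p = 0.0884). Kdm5a, a histone demethylase gene (0.39, SE 0.13), and Ep300, an acetyltransferase gene (0.45, SE 0.18), followed. Of the 5 other E-box factors and partners 0 passed and 0 had an unadjusted p under 0.05. Their median was -0.013, and -0.11 without wild-type replicate 1. With 1 library left out it ran from -0.14 (without knockout replicate 2) to 0.10 (without wild-type replicate 2). Timeless (-0.24, SE 0.15), Bmal2 (0.17, SE 0.26) and Bhlhe40 (-0.13, SE 0.29) had the smallest p.

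Genes known to follow the clock in heart muscle did not share one pattern. Of 14, 0 passed, 2 had an unadjusted p under 0.05, 12 were above 0 and the median was 0.26 (0.44 with the GC content and length correction). Pik3r1, a regulatory subunit gene of PI3 kinase, was at 240.0, 156.6 and 218.4 CPM in knockout hearts and 105.4, 132.6 and 122.7 CPM in wild-type hearts (0.77, SE 0.16, edgeR adjusted p = 0.0634). Wee1, the mitotic kinase gene with E-boxes in its promoter, was at 0.76 (SE 0.21, edgeR adjusted p = 0.108), and Klf15 at 0.43 (SE 0.21). Tcap, the titin cap gene, followed the Per side at the low end, with 535.6 CPM in wild-type replicate 1 and 1299 to 1913 CPM elsewhere. Pdk4, which restrains glucose oxidation, was highest in knockout replicate 1, at 831.9 CPM, and lay between 147.9 and 326.4 CPM in the other 5. Tcap and Pdk4 were named after their values were seen.

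Inputs that can reset Per1 were read beside it. Of 10 glucocorticoid-induced genes 0 passed, 2 had an unadjusted p under 0.05 and 10 were above 0. Their median was 0.62, and 0.35 without wild-type replicate 1. Errfi1 (0.72, SE 0.26), Klf9 (0.57, SE 0.24) and Tsc22d3 (0.70, SE 0.37) led by p. Tsc22d3, which encodes GILZ, was lowest in wild-type replicate 1, at 47.3 CPM, where Per1 was lowest too, against 76.7 to 150.3 CPM in the other libraries. Fkbp5, also induced by glucocorticoids and named after its values were seen, did not follow Per1: it was at 104.7 CPM in knockout replicate 1 and 24.6 to 36.0 CPM elsewhere. Of 7 measured CREB-induced genes 0 passed, 1 had an unadjusted p under 0.05 and 3 were above 0. Their median was -0.15, ran from -0.60 without knockout replicate 2 to 0.11 without knockout replicate 3, and was 0.016 with a minimum mean of 5 CPM. Sik1 (0.60, SE 0.21), Nr4a2 (-0.54, SE 0.31) and Junb (-0.43, SE 0.28) led. Of 8 temperature-responsive genes 0 passed and 1 had an unadjusted p under 0.05. Their median was 0.063, and turned to -0.049 when knockout replicate 2 was left out and to -0.038 when wild-type replicate 3 was. Cirbp (-0.43, SE 0.20), Hspa8 (0.18, SE 0.14) and Hsp90aa1 (-0.15, SE 0.16) led.

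Genes most like Bmal1 and Per2 over the 6 libraries were sought among 10138 genes of at least 5 CPM, by Pearson's r of log2 CPM. No p-value is given, because the genes were picked for their r. For Bmal1 the highest were Camk2n1 (0.984), Ankrd50 (0.983), Traf2 (0.978), Tuba8 (0.969) and Creld2 (0.967). The lowest were Zbtb10 (-0.987), Angel2 (-0.985), Per3 (-0.985), Tef (-0.983) and Zc3h7a (-0.976), so that a core clock gene and a PAR bZIP gene were among the 5 most opposed. For Per2 the highest were Mat2a (0.999), Ccnl1 (0.995), Tmem19 (0.994), Lrrc10 (0.993) and Per3 (0.985), and among the lowest were Nt5m (-0.990), Dctn5 (-0.988), Creb3l1 (-0.986) and Gde1 (-0.984). A high r does not need a swing of the same size: Camk2n1 spanned 0.32 and Mat2a 1.06 on the log2 scale, against 4.43 for Bmal1 and 3.46 for Per2.

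In GRCm38.p6, the 9 genes lie on 8 chromosomes and all are annotated as protein coding. Per2 runs from 91415977 to 91459351 and Npas2 from 39193702 to 39363240 on chromosome 1. Cry2 runs from 92403646 to 92434085 on chromosome 2, Ciart from 95878500 to 95882257 on chromosome 3, and Per3 from 150997018 to 151044707 on chromosome 4. Clock runs from 76209868 to 76305603 on chromosome 5, Bmal1 from 113178471 to 113314126 on chromosome 7, Cry1 from 85131700 to 85185054 on chromosome 10 and Per1 from 69095108 to 69109965 on chromosome 11. Counts are given for whole genes, so isoforms were not separated.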

How the data were processed

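The authors deposited 1 table of raw counts per gene, which are whole numbers, for 6 libraries of individual mice, 3 per genotype. Per the submitters' processing notes, the build was mm10 and DESeq2 was used, with no version named. For the aligner, counter, annotation and use of strand, nothing is given in the sources used here. Each listed gene had at least 12 counts in every library, and library totals were taken from the table.

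Knockout was tested against wild type, without covariates, by the robust quasi-likelihood test of edgeR 4.0.16 in R 4.3.3 with TMM factors. Its filter on low counts left 13384 of 13384 genes. The 2-sided p-values were adjusted over all genes (Benjamini-Hochberg), and those under 0.05 were called. A positive log2 fold change means a higher level in the knockout. Standard errors were derived from the F statistic, and log2 CPM used a prior count of 0.5. Correlations over libraries were tested by exact permutation. The edgeR, DESeq2 1.42.0 and limma 3.58.1 fits were tested on simulated data. The members and lists were chosen with earlier results of these data known.

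Named were the 9 members, all measured genes of the second loop, up to 3 genes of smallest p of each other list, and for Bmal1 and Per2 the 5 genes of highest and 5 of lowest r; 2 of the genes so taken are not reported here but are included in the counts. Positions and promoters came from RefSeq on GRCm38.p6, matched by gene identifier or symbol. Transcript lengths and GC content came from GENCODE M21 and were found for 94.2% of genes. Alternatives were other size factors, filters, tools and thresholds, a replicate block, a GC content and length correction, and each library left out. Whether equal replicate numbers pair animals was checked over all genes, and they were not treated as pairs. That check cannot show a shared hour of collection.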

Additional observations from a re-analysis of the deposited data

How the results depend on the processing

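No core clock member was called by edgeR with RLE or upper quartile size factors, without a filter or with a minimum mean of 5 CPM, without robust estimation, with the correction for GC content and length, at a threshold of 0.10, without any one library, or by DESeq2 or limma-voom. The exception was the replicate number as a block. Same-numbered libraries did not deviate together over all genes (correlations of deviations -0.119, -0.0748 and -0.146), and no library correlated best with its own number. The numbers were therefore not taken as pairs, but a check over all genes cannot show whether same-numbered hearts shared an hour of collection. Within each genotype, replicate 1 was the highest library for Bmal1 and Npas2 and the lowest for Per1, Per2, Per3 and Ciart. The sources used here do not say whether a number marks a shared day or time of collection, in which case the blocked fit would be the one to use. With the replicate block 4 members were called, Per2 (1.51, edgeR adjusted p = 0.00114), Per3 (1.38, 8.27e-05), Ciart (1.28, 0.00248) and Bmal1 (-1.83, 4.24e-05). With the replicate block and the GC content and length correction together 2 were called, Per3 (1.32, 0.0169) and Bmal1 (-1.88, 0.0169). Genes called over the whole table numbered 15, and 218 with the replicate block, 26 with the block and the correction, 41 with the correction alone (25 higher, 16 lower, against 12 and 3), 618 with DESeq2, 318 at a threshold of 0.10 and 8 at a minimum mean of 5 CPM, which left Npas2 out. Without 1 library they numbered from 0 to 1826, the highest without wild-type replicate 2.

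The list counts of 0 became, with the replicate block, 2 for the second loop, 1 for kinases and turnover, 1 for heart clock-controlled and 1 for glucocorticoid-induced genes, and with the block and the correction 1 for the second loop. With DESeq2 they were 3 for the second loop, 1 for coregulators and 2 for heart clock-controlled genes, and at a threshold of 0.10 they were 2, 1 and 1. Without 1 library the lists' counts ran from 0 to 2 (second loop, kinases and turnover, coregulators), 0 to 1 (heart clock-controlled, CREB-induced, temperature-responsive) and 0 to 3 (glucocorticoid-induced). Cry1 changed sign with limma-voom (0.030), the replicate block (0.017), the correction (0.0024), both together (0.079), and without knockout replicate 1 (0.079) or wild-type replicate 1 (0.42), in a range of -0.29 to 0.42 with 1 library left out. Clock was at 0.023 with the correction alone and changed sign with the block and the correction (-0.0093). The number of members spanning more than 7-fold, recomputed without each library as an alternative chosen after seeing the data, ran from 1 (without wild-type replicate 1) to 6. Of 72 recomputed ratios between clock genes, with a prior count of 2 or the correction, 0 moved by more than the spread between replicates. The causes of these shifts were not tested. At these depths the Bmal1 level in knockout replicates 2 and 3 rests on 38 and 39 counts.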
